A study of Mus musculus with 9 samples.

Results

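The RIG-I-like receptors are cytoplasmic RNA helicases that sense viral and other unusual RNA, and 10 genes for these receptors and the proteins through which they signal were examined here. They are the receptors Ddx58 (RIG-I), Ifih1 (MDA5) and Dhx58 (LGP2), the ubiquitin ligases Trim25 and Rnf135, the adaptor Mavs, the kinases Tbk1 and Ikbke, and the transcription factors Irf3 and Irf7. The genes were chosen by name, with earlier results of these data known. All 10 were found among the 22396 genes of the deposited counts after Ensembl identifiers had been matched to symbols. As background, RIG-I and MDA5 bind double-stranded RNA and then, through their caspase recruitment domains, engage MAVS on mitochondria. MAVS recruits TBK1 and IKKε, which phosphorylate IRF3 and IRF7 and so switch on interferon genes, while LGP2 lacks those domains and modulates the other receptors. Several genes of the pathway, such as Ddx58, Ifih1, Dhx58 and Irf7, are themselves induced by interferon.

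All libraries came from B16F10, a mouse melanoma cell line, carrying a lentiviral construct for FLAG-tagged RIG-I, and they hold RNA recovered with an anti-FLAG antibody and depleted of ribosomal RNA. The groups differed in their shRNA: a control (shCtr) or one of a pair against Osgep, whose product modifies tRNA (shOSGEP#1 and shOSGEP#2). Each group had 3 replicates from independent experiments. No RNA from before the precipitation is used here, so a higher share of a transcript in the cell and more of it held by RIG-I cannot be told apart, and neither can, in bulk samples, fewer cells and less RNA per cell. The species of the construct is not given in the sources used here, so counts on Ddx58 include any of its reads that were assigned to the mouse gene.

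Total counts were 40333037, 47750758 and 41805753 in shCtr replicates 1, 2 and 3 while shOSGEP#1 had 34551436, 50224299 and 30697653. The shOSGEP#2 totals came to 25460689, 568995 and 14914731. Because replicate 2 of shOSGEP#2 was this shallow, it was left out of the main tests and is described apart, and comparisons of libraries are among the other 8 unless it is named. Levels are given as CPM, counts per 1e6 counts of the library. Genes were tested by edgeR's quasi-likelihood test on the other 8 libraries, at a Benjamini-Hochberg adjusted p under 0.01 over the 12744 genes that passed the filter on low counts.

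Osgep itself was measured at 19.1, 19.9 and 15.5 CPM in shCtr and at 3.76, 1.15 and 1.53 CPM in shOSGEP#1. In shOSGEP#2 replicate 1 it had 2 counts (0.0786 CPM), below a floor of 3 counts (0.118 CPM), and in replicate 3 it was at 2.88 CPM. The 5 knockdown libraries lay below the 3 control libraries, and Osgep fell by 3.47 on the log2 scale over both shRNAs (SE 0.64, edgeR adjusted p = 0.00406). That call held in 4 of 8 fits with a library left out, with log2 fold changes of −5.48 to −2.94, and in 10 of all 16 alternatives. Taken singly, neither shRNA passed the threshold for Osgep (edgeR adjusted p = 0.0128 for shOSGEP#1 and 0.0150 for shOSGEP#2).

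Markers of the melanocyte lineage were all detected in the 8 libraries, 7 of 7 in each. Their summed level was 6336 CPM, 6039 CPM and 8473 CPM in shCtr replicates 1, 2 and 3 and 6288 CPM, 7565 CPM and 6839.9 CPM in shOSGEP#1. It was 2617 CPM and 3374 CPM in shOSGEP#2 replicates 1 and 3, below all other libraries, and Tyrp1 was the most abundant of them throughout. Against shCtr, 5 of the 7 fell in shOSGEP#2 (Mlana, Pmel, Tyr, Dct and Sox10) and 1 in shOSGEP#1 (Tyr), where 3.89% and 4.67% of all tested genes fell. The 4 leukocyte markers summed to at most 3.18 CPM in any library, led by Lyz2 in 7 of the 8 libraries and by Cd3e in shOSGEP#2 replicate 3, and Ptprc was at 0.652 CPM or less. The epithelial markers Epcam and Krt5 were at 0 in all libraries except for 0.120 CPM of Epcam in shCtr replicate 3. The endothelial markers Pecam1 and Cdh5 together reached at most 2.12 CPM. The 3 fibroblast markers summed to 4.14 CPM, 6.03 CPM and 6.22 CPM in shCtr and to 4.08 CPM, 3.44 CPM and 5.83 CPM in shOSGEP#1. They reached 16.3 CPM and 33.8 CPM in shOSGEP#2 replicates 1 and 3, with Col1a2 as the most abundant. Against shCtr, 0 of these 3 passed in edgeR, 2 had an unadjusted p under 0.05 (4541 of all 12744 genes) and 2 passed in DESeq2 (2395 of 15710). The part of depth, melanocyte markers and fibroblast markers in the shOSGEP#2 results below was not tested.

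Levels of different genes were compared per kilobase of merged exons. In shCtr, Ddx58, with any construct reads assigned to it, was highest at 30.4 ± 7.87 CPM per kb (SD, n = 3). It ranked 1729 of the 14758 genes with a count in shCtr. Mavs followed at 21.6 ± 0.506 CPM per kb (SD, n = 3), and Rnf135 at 16.9 ± 1.52 CPM per kb (SD, n = 3). Tbk1 stood at 13.6 ± 2.86, Irf3 at 10.6 ± 0.911 and Ifih1 at 5.83 ± 0.867 CPM per kb (SD, n = 3 each). Dhx58 stood at 3.60 ± 0.277, Ikbke at 2.76 ± 0.655 and Irf7 at 1.85 ± 0.956 CPM per kb (SD, n = 3 each), and Trim25 came last with 0.00277 ± 0.00480 CPM per kb (SD, n = 3). The Trim25 value rests on 0, 0 and 2 counts, below a floor of 3 counts, and gives only its place in the order. The libraries of neighbours in this order overlapped for Rnf135 and Tbk1, Tbk1 and Irf3, Dhx58 and Ikbke, and Ikbke and Irf7. Within each shCtr library the first of each pair was nonetheless the higher, except that Irf7 exceeded Ikbke in replicate 3. Scaled to the longest transcript instead, Tbk1 and Irf3 changed places and the others kept theirs.

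**Figure D1:**
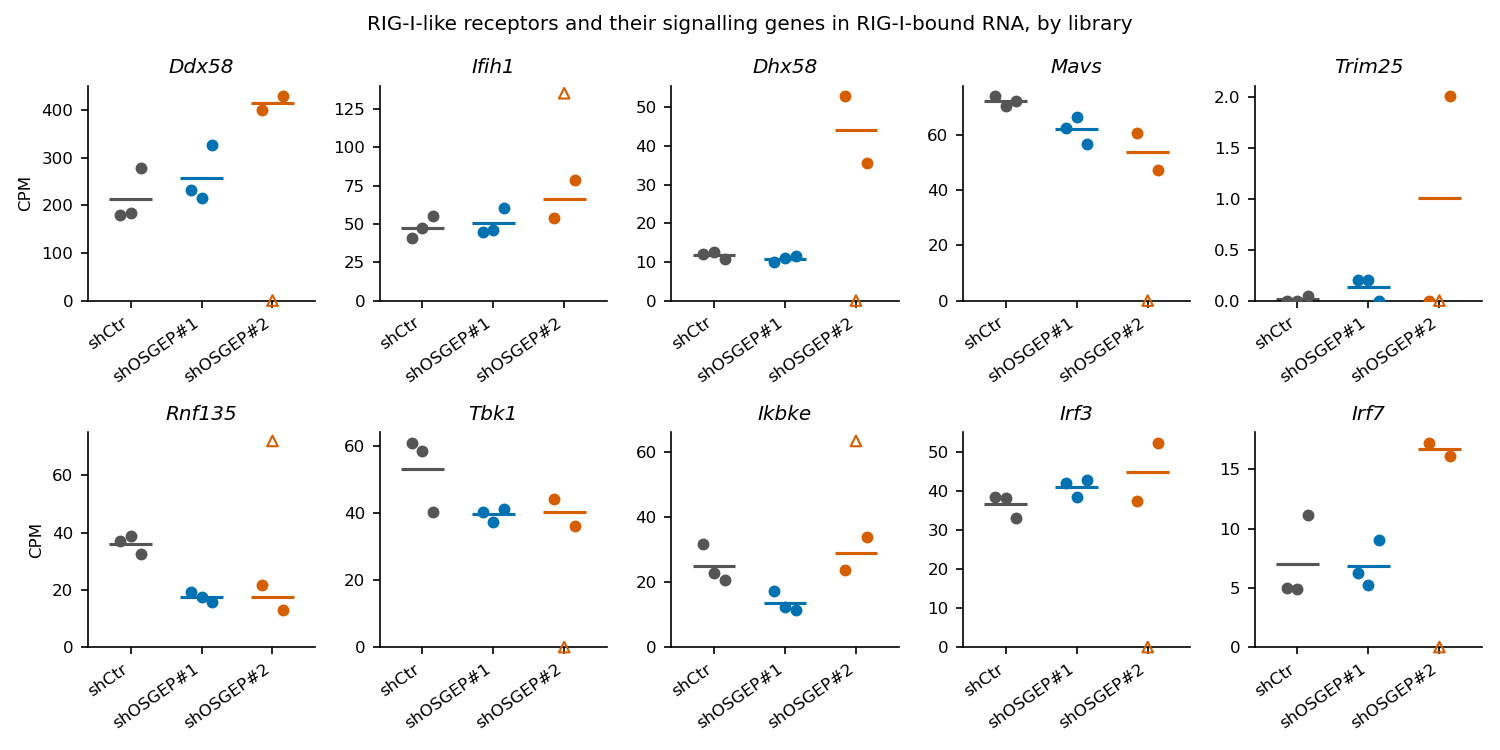
CPM of each of the 10 genes (vertical axes, each with its own scale from 0) in every library, by group. Filled points are the 8 libraries of the tests, bars their group means, and open triangles the shallow replicate 2 of shOSGEP#2. Dhx58 reached 52.9 and 35.5 CPM in shOSGEP#2 against at most 12.5 CPM in shCtr, and Rnf135 was lower in the 5 filled knockdown points than in shCtr.

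Among the receptors, Dhx58 showed the largest difference. It was at 12.1, 12.5 and 10.8 CPM in shCtr replicates 1, 2 and 3 and at 10.0, 11.0 and 11.4 CPM in shOSGEP#1. Replicates 1 and 3 of shOSGEP#2 were at 52.9 and 35.5 CPM. The shOSGEP#2 libraries lay far above the other groups, which overlapped each other. Dhx58 rose 3.53-fold in shOSGEP#2 against shCtr (log2 fold change 1.82, SE 0.22, 95% confidence interval 1.33 to 2.31, edgeR adjusted p = 0.000405). In shOSGEP#1 its log2 fold change was −0.13 (SE 0.20, 95% confidence interval −0.58 to 0.31, edgeR adjusted p = 0.690). The direct comparison of the shRNAs gave a log2 fold change of 1.95 for shOSGEP#2 over shOSGEP#1 (SE 0.22, edgeR adjusted p = 0.000256). Both shOSGEP#2 calls held with each of the 8 libraries left out in turn, where the fits without a shOSGEP#2 library rest on 1 library of that group, assumed to vary like the others. The mean over both shRNAs also passed (log2 fold change 0.84, SE 0.19, edgeR adjusted p = 0.00960), but this value averages unlike responses and lost its call in 7 of 8 fits with a library left out. Over those 8 fits it ran from 0.66 to 0.98.

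Ddx58 is the receptor whose tagged form was precipitated, and its counts include any construct reads assigned to it. Its level was 179.9, 184 and 278 CPM in shCtr and 232, 216 and 327 CPM in shOSGEP#1. It was at 402 and 429 CPM in shOSGEP#2 replicates 1 and 3. The shOSGEP#2 libraries were the highest, while shOSGEP#1 overlapped shCtr. The log2 fold change was 0.86 in shOSGEP#2 (SE 0.23, 95% confidence interval 0.35 to 1.37) and missed the threshold (edgeR adjusted p = 0.0239). It passed with DESeq2 (adjusted p = 0.00289), with no filter on low counts (edgeR adjusted p = 0.00727) and without shCtr replicate 3, the highest control (edgeR adjusted p = 0.00898), and its adjusted p ranged up to 0.958 over all alternatives. In shOSGEP#1 the log2 fold change was 0.26 (SE 0.21, edgeR adjusted p = 0.427).

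Ifih1 was at 40.8, 47.2 and 54.9 CPM in shCtr and at 44.7, 46.4 and 60.6 CPM in shOSGEP#1. In shOSGEP#2 replicates 1 and 3 it was at 53.9 and 78.9 CPM. All groups overlapped, and its log2 fold changes of 0.07 (SE 0.19) in shOSGEP#1 and 0.38 (SE 0.21) in shOSGEP#2 did not pass (edgeR adjusted p = 0.830 and 0.234).

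Of the ubiquitin ligases, Rnf135, known as Riplet, attaches the ubiquitin chains that activate RIG-I. Its level was 37.1, 38.8 and 32.6 CPM in shCtr and 19.4, 17.4 and 15.8 CPM in shOSGEP#1. Replicates 1 and 3 of shOSGEP#2 were at 21.8 and 13.1 CPM. The 5 knockdown libraries of the test lay below every control library, and the knockdown groups overlapped each other. Rnf135 fell by 1.06 on the log2 scale in shOSGEP#1 (SE 0.21, edgeR adjusted p = 0.00617). It fell by 1.13 in shOSGEP#2 (SE 0.25, edgeR adjusted p = 0.00888) and by 1.09 over both (SE 0.19, edgeR adjusted p = 0.00288). The direct difference between the shRNAs was −0.07 (log2, SE 0.24, 95% confidence interval −0.60 to 0.46, edgeR adjusted p = 0.851). These calls lay close to the threshold: the shOSGEP#1 call was lost when any 1 of the shCtr or shOSGEP#1 libraries was left out, with log2 fold changes of −1.13 to −0.99. The shOSGEP#2 call was lost with library totals in place of TMM, with only the groups compared, and without any 1 of the shCtr libraries, shOSGEP#1 replicate 1 or 2, or shOSGEP#2 replicate 3 (log2 fold changes of −1.60 to −0.79 over the 8 fits without 1 library, the former without shOSGEP#2 replicate 1, which kept the call). The call over both was lost without shCtr replicate 1 or 2.

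Trim25, the other ligase long studied as an activator of RIG-I, was nearly without counts, and whether this reflects its level or how reads were assigned to genes cannot be told apart from the counts. The shCtr libraries held 0, 0 and 2 counts and those of shOSGEP#1 held 7, 10 and 0. Replicates 1 and 3 of shOSGEP#2 held 0 and 30. The 30 counts, 2.01 CPM, were the highest value, and a floor of 3 counts allows at most 0.0744 CPM in shCtr replicate 1, 0.0628 CPM in shCtr replicate 2, 0.0977 CPM in shOSGEP#1 replicate 3 and 0.118 CPM in shOSGEP#2 replicate 1, the libraries at 0. Such floors and the confidence intervals cover counting error and, for the intervals, the spread between replicates, but no bias of precipitation or library preparation. Trim25 was the 1 gene of the 10 that did not pass the filter on low counts, and no fold change is given for it.

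Mavs, the adaptor, was at 73.8, 70.4 and 72.2 CPM in shCtr and at 62.4, 66.4 and 56.6 CPM in shOSGEP#1. It was at 60.4 and 47.2 CPM in shOSGEP#2 replicates 1 and 3. The 5 knockdown libraries lay below the controls, which were close together. The differences were small, with log2 fold changes of −0.24 (SE 0.15, edgeR adjusted p = 0.299) in shOSGEP#1 and −0.51 (SE 0.17, edgeR adjusted p = 0.0552) in shOSGEP#2, and did not pass.

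The kinase Ikbke was at 31.6, 22.6 and 20.5 CPM in shCtr and at 17.2, 12.4 and 11.4 CPM in shOSGEP#1. In shOSGEP#2 replicates 1 and 3 it was at 23.7 and 33.9 CPM. The shOSGEP#1 libraries were the lowest, and shOSGEP#2 overlapped shCtr. The log2 fold change in shOSGEP#1 was −0.88 (SE 0.24, 95% confidence interval −1.40 to −0.36), which missed the threshold in edgeR (adjusted p = 0.0230) and passed it in DESeq2 (adjusted p = 0.00440, with adjusted p values up to 1.00 over all alternatives). The difference of shOSGEP#2 over shOSGEP#1 was 0.99 (log2, SE 0.26, edgeR adjusted p = 0.0201). It passed in DESeq2 (adjusted p = 0.00337) and with no filter on low counts (edgeR adjusted p = 0.00964), and its adjusted p ranged up to 0.761 over all alternatives.

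Tbk1, the other kinase, ranged from 40.3 to 60.9 CPM in shCtr, from 37.4 to 41.0 CPM in shOSGEP#1 and from 36.1 to 44.2 CPM in shOSGEP#2. The groups overlapped through shCtr replicate 3, the lowest control. Log2 fold changes were −0.44 (SE 0.18, edgeR adjusted p = 0.114) in shOSGEP#1 and −0.49 (SE 0.21, edgeR adjusted p = 0.115) in shOSGEP#2.

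Of the transcription factors, Irf7 was at 4.98, 4.86 and 11.2 CPM in shCtr and at 6.25, 5.28 and 9.06 CPM in shOSGEP#1. Replicates 1 and 3 of shOSGEP#2 were at 17.2 and 16.2 CPM. The shOSGEP#2 libraries were the highest, and shCtr replicate 3 stood above the other controls, as it did for Ddx58. The log2 fold change in shOSGEP#2 was 1.16 (SE 0.39, 95% confidence interval 0.30 to 2.02, edgeR adjusted p = 0.0573), and in shOSGEP#1 it was −0.05 (SE 0.36, edgeR adjusted p = 0.942). Neither passed, nor did the direct difference between the shRNAs (log2 1.21, SE 0.39, edgeR adjusted p = 0.0467). Irf3, in contrast, ranged only from 33.0 to 52.4 CPM over the 8 libraries. Its log2 fold changes were 0.15 (SE 0.16, edgeR adjusted p = 0.538) in shOSGEP#1 and 0.19 (SE 0.18, edgeR adjusted p = 0.472) in shOSGEP#2, and neither passed. The shOSGEP#1 libraries of Irf3 lay above shCtr, though by little (38.57 against 38.55 CPM at the closest), and shOSGEP#2 overlapped shCtr.

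**Figure D2:**
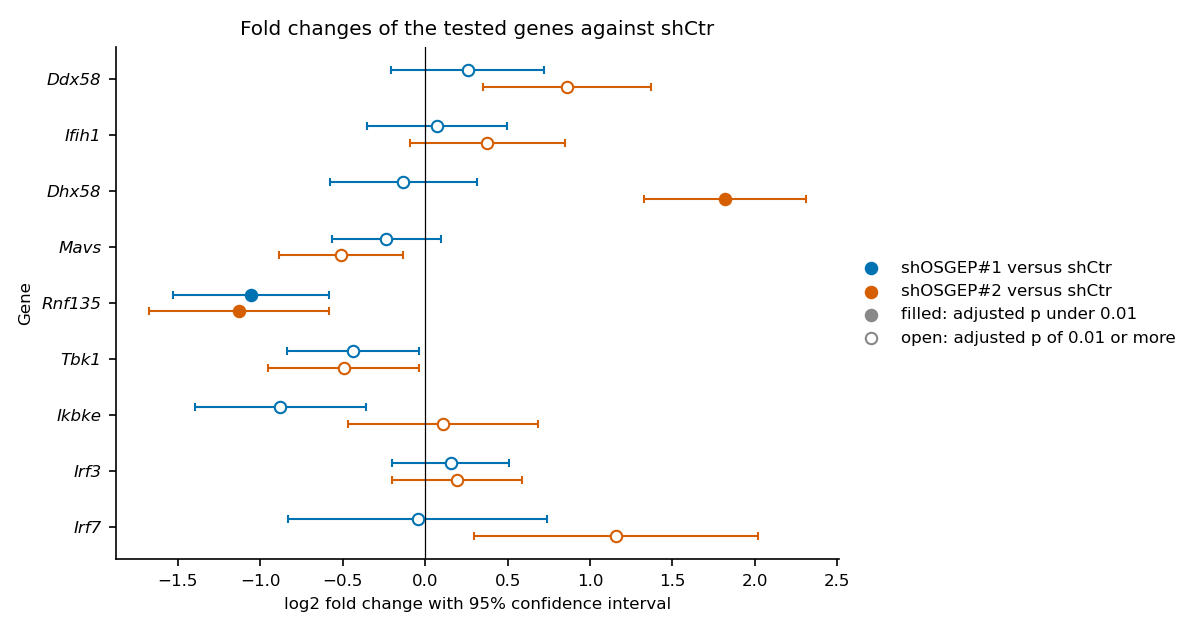
Log2 fold changes (horizontal axis) of the 9 tested genes (vertical axis) against shCtr, with 95% confidence intervals from edgeR over 8 libraries, for shOSGEP#1 and shOSGEP#2. Filled points passed an adjusted p under 0.01: Rnf135 at −1.06 and −1.13 and Dhx58 at 1.82 in shOSGEP#2. Both comparisons use the same shCtr libraries.

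Counted over the 9 tested genes, 1 passed in shOSGEP#1 against shCtr, where 9.67% of all tested genes did, and 2 passed in shOSGEP#2 against shCtr, where 9.55% did. For both shRNAs together 2 passed (9.31% of all genes), and between the shRNAs 1 passed (10.8% of all genes). The genes were Rnf135 in the comparisons with shCtr and Dhx58 in those that include shOSGEP#2. With 9 genes, 1 gene more or less moves the share by more than these background percentages, so the counts say nothing about the pathway as a whole. At an unadjusted edgeR p under 0.05, the same fit held 3, 6, 5 and 4 of the 9 genes in these comparisons, in the order given. Beside them stood 4450, 4541, 4443 and 4722 of all 12744 genes. The CPM of all 5 knockdown libraries lay below all 3 controls for 2 of the 9 genes, Mavs and Rnf135 (8.99% of all genes), and above them for 0 of the 9 (11.9% of all genes).

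With shOSGEP#2 replicate 2 included, edgeR called 0 of the 9 genes and 0% of 12337 genes in each of the 4 comparisons. At an unadjusted p under 0.05, that fit held 620 genes for shOSGEP#1, 1240.0 for shOSGEP#2, 817 for both and 1325 between the shRNAs, among them Ikbke alone of the 9, between the shRNAs. DESeq2 on all 9 libraries also called 0 of the 9 genes in each comparison, and 122 genes, 348 genes, 178 genes and 412 genes over the whole table, in the same order. In the edgeR fit the log2 fold change of Dhx58 in shOSGEP#2 became 1.28 (SE 1.03, adjusted p = 0.772) and that of Rnf135 became −0.52 (SE 0.54, adjusted p = 0.814).

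In that library, 7 of the 10 genes had no count at all: Ddx58, Dhx58, Mavs, Trim25, Tbk1, Irf3 and Irf7. Over the whole table it held a count for 4196 of 22396 genes, where shOSGEP#2 replicates 1 and 3 held one for 13786 and 11733. Zeros were thus widespread and not particular to these genes. The depth of shOSGEP#2 replicate 2 puts the floor of 3 counts at 5.27 CPM. At the mean CPM of shOSGEP#2 replicates 1 and 3, its total would have given 236 counts for Ddx58, 30.6 for Mavs, 25.6 for Irf3, 25.1 for Dhx58, 22.8 for Tbk1 and 9.50 for Irf7. The cause of the zeros was not tested. The other 3 genes were instead above every other library. Ifih1 had 77 counts where 37.8 would have been given, and Rnf135 had 41 where 9.93 would have been. Ikbke had 36 where 16.4 would have been. The share of all genes that stood above every other library was not counted, so these values cannot be read as particular to the 3 genes.

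The rest of the pathway was described with 81 further genes in 6 lists, of which 74 passed the filter on low counts. In shOSGEP#1 against shCtr, 5 of them rose and 6 fell, beside 637 and 595 of all 12744 genes. In shOSGEP#2 against shCtr, 1 rose and 1 fell, beside 721 and 496 of all genes (59.2% of the passing genes were higher, or 70.6% with 901 higher and 375 lower when library totals replaced TMM). The median log2 fold change of all genes was 0.00 in shOSGEP#1 and −0.06 in shOSGEP#2. The 23 passing values of these genes over the 4 comparisons kept their sign under every alternative, but 20 of them lost their call when some single library was left out. The exceptions were Traf6 and Tkfc in shOSGEP#1 against shCtr and Tyk2 between the shRNAs.

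The signalling complex downstream of MAVS held 19 genes, all tested, of which 4 fell in shOSGEP#1, with a median log2 fold change of −0.10 for the list. Traf6, a ubiquitin ligase on the path to NF-κB, was at 118, 128 and 127 CPM in shCtr and at 66.0, 58.2 and 67.8 CPM in shOSGEP#1. It fell by 0.97 on the log2 scale in shOSGEP#1 (SE 0.13, edgeR adjusted p = 0.000847), with no overlap between these groups. Its shOSGEP#2 libraries, at 83.7 and 91.8 CPM, also lay below the controls, but the log2 fold change of −0.60 there did not pass (SE 0.15, edgeR adjusted p = 0.0160). Over both shRNAs Traf6 fell by 0.78 (log2, SE 0.12, edgeR adjusted p = 0.00134). Ikbkb, the kinase IKKβ, fell by 0.72 (SE 0.15, edgeR adjusted p = 0.00598), and Rela, an NF-κB subunit, fell by 0.72 (SE 0.15, edgeR adjusted p = 0.00715). Fadd, a death domain adaptor, fell by 0.92 (SE 0.18, edgeR adjusted p = 0.00487). In shOSGEP#2, 0 of the 19 passed in edgeR, 7 had an unadjusted p under 0.05 (4541 of all 12744 genes) and 3 passed in DESeq2 (2395 of 15710), with a median of −0.05. The most abundant by mean CPM were Tomm70a and Traf3, with log2 fold changes in shOSGEP#1 of 0.45 (SE 0.17) and −0.37 (SE 0.18) that did not pass.

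Of 15 inhibitors, 14 were tested. In shOSGEP#1, 2 rose and 1 fell, with a median of −0.15. Tkfc, a metabolic kinase that binds MDA5, was at 23.1, 24.1 and 21.4 CPM in shCtr and at 55.8, 70.0 and 46.8 CPM in shOSGEP#1. It rose by 1.32 (log2, SE 0.19, edgeR adjusted p = 0.00129). Itch, a ubiquitin ligase that with Pcbp2 targets MAVS, rose by 0.58 (log2, SE 0.13, edgeR adjusted p = 0.00920), and Atg5, an autophagy protein, fell by 1.09 (log2, SE 0.17, edgeR adjusted p = 0.00186). In shOSGEP#2, 1 rose and 1 fell, with a median of −0.15. Tnfaip3, the NF-κB inhibitor A20, was at 1.93, 1.86 and 3.44 CPM in shCtr and at 7.07 and 19.8 CPM in shOSGEP#2, and rose by 2.36 (log2, SE 0.51, edgeR adjusted p = 0.00788). With a library left out its value ran from 1.48 to 2.91 and passed in 3 of 8 fits. Cyld, a deubiquitinase, was at 50.7, 60.1 and 61.2 CPM in shCtr and at 30.9 and 34.2 CPM in shOSGEP#2, and fell by 0.91 (log2, SE 0.17, edgeR adjusted p = 0.00344). Pcbp2, the most abundant of the list by mean CPM, did not pass in either (edgeR adjusted p = 0.550 and 0.671).

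Of 16 output genes, 14 were tested, and 3 rose in shOSGEP#1 (median 0.27). The chemokine gene Cxcl10 was at 13.0, 17.4 and 17.1 CPM in shCtr and at 47.8, 61.2 and 123 CPM in shOSGEP#1, and rose by 2.28 (log2, SE 0.36, edgeR adjusted p = 0.00174). The interferon-induced genes Ifit1 and Ifit3 rose by 1.31 (SE 0.22, edgeR adjusted p = 0.00213) and 1.85 (SE 0.38, edgeR adjusted p = 0.00659) on the log2 scale, though Ifit3 ran from 1.21 to 2.12 with a library left out and passed in 4 of 8 such fits. The shOSGEP#1 libraries of these 3 genes, which passed the test on the same libraries, lay above all shCtr libraries. The share of all genes placed in this way was not counted. In shOSGEP#2, 0 of the 14 passed in edgeR, 2 had an unadjusted p under 0.05 (4541 of all 12744 genes) and 1 passed in DESeq2 (2395 of 15710), with a median of 0.32. Tested directly, Cxcl10 was lower in shOSGEP#2 than in shOSGEP#1 by a log2 fold change of −2.02 (SE 0.41, edgeR adjusted p = 0.00572). Mx1 was at 4.17, 6.43 and 9.28 CPM in shCtr, at 2.55, 1.99 and 1.37 CPM in shOSGEP#1 and at 8.48 and 15.9 CPM in shOSGEP#2. Its shOSGEP#1 libraries lay below all controls, with a log2 fold change of −1.76 that missed the threshold (SE 0.40, edgeR adjusted p = 0.0109). It was higher in shOSGEP#2 than in shOSGEP#1 by 2.53 (log2, SE 0.44, edgeR adjusted p = 0.00225). Ifit2 and Bst2, the most abundant of the list by mean CPM, passed in neither comparison with shCtr. Ifnb1, the interferon-β gene itself, was at 0 in 7 of the 8 libraries and at 0.0652 CPM, below the floor of 3 counts, in shOSGEP#1 replicate 3.

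Interferon receptor signalling was represented by 6 genes, all tested. Tyk2, a receptor kinase, was at 74.2, 79.8 and 57.1 CPM in shCtr and at 33.8, 28.1 and 15.3 CPM in shOSGEP#1, and at 86.5 and 87.4 CPM in shOSGEP#2. It fell by 1.46 in shOSGEP#1 (log2, SE 0.25, edgeR adjusted p = 0.00285), and shOSGEP#2 exceeded shOSGEP#1 by 1.67 (log2, SE 0.28, edgeR adjusted p = 0.00167). In shOSGEP#1, 4 of the 6 had an unadjusted p under 0.05 in edgeR (4450 of all 12744 genes) and 2 passed in DESeq2 (2420 of 15710). Of these 4, Ifnar2 (log2 fold change 0.98, SE 0.24), Irf9 (0.78, SE 0.25) and Ifnar1 were higher, without passing (edgeR adjusted p = 0.0143, 0.0453 and 0.0669). In shOSGEP#2 against shCtr, 0 of the 6 passed in edgeR, 2 had an unadjusted p under 0.05 (4541 of all 12744 genes) and 1 passed in DESeq2 (2395 of 15710). The medians of the list were 0.30 in shOSGEP#1 and 0.34 in shOSGEP#2. Jak1 and Ifnar1, the most abundant by mean CPM, passed in no comparison, with log2 fold changes in shOSGEP#1 of 0.12 (SE 0.13) and 0.41 (SE 0.15).

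The remaining lists held no gene that passed. Of 13 cofactors that help the receptors, 12 were tested, with medians of 0.23 in shOSGEP#1 and −0.17 in shOSGEP#2. At an unadjusted p under 0.05 edgeR held 2 and 5 of them (4450 and 4541 of all 12744 genes), and DESeq2 called 0 and 2 (2420 and 2395 of 15710). The most abundant by mean CPM, Ywhae and Ddx3x, averaged 781 ± 33.4 and 598 ± 74.9 CPM in shCtr (SD, n = 3 each). Of 12 other nucleic acid sensors, 9 were tested, with medians of 0.14 and 0.18. Here 2 and 3 had an unadjusted p under 0.05 in edgeR, and DESeq2 called 0 in both, beside the same counts of all genes. Eif2ak2 (PKR) and Adar were the most abundant of these by mean CPM, at 119 ± 10.1 and 80.5 ± 5.32 CPM in shCtr (SD, n = 3 each).

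**Figure D3:**
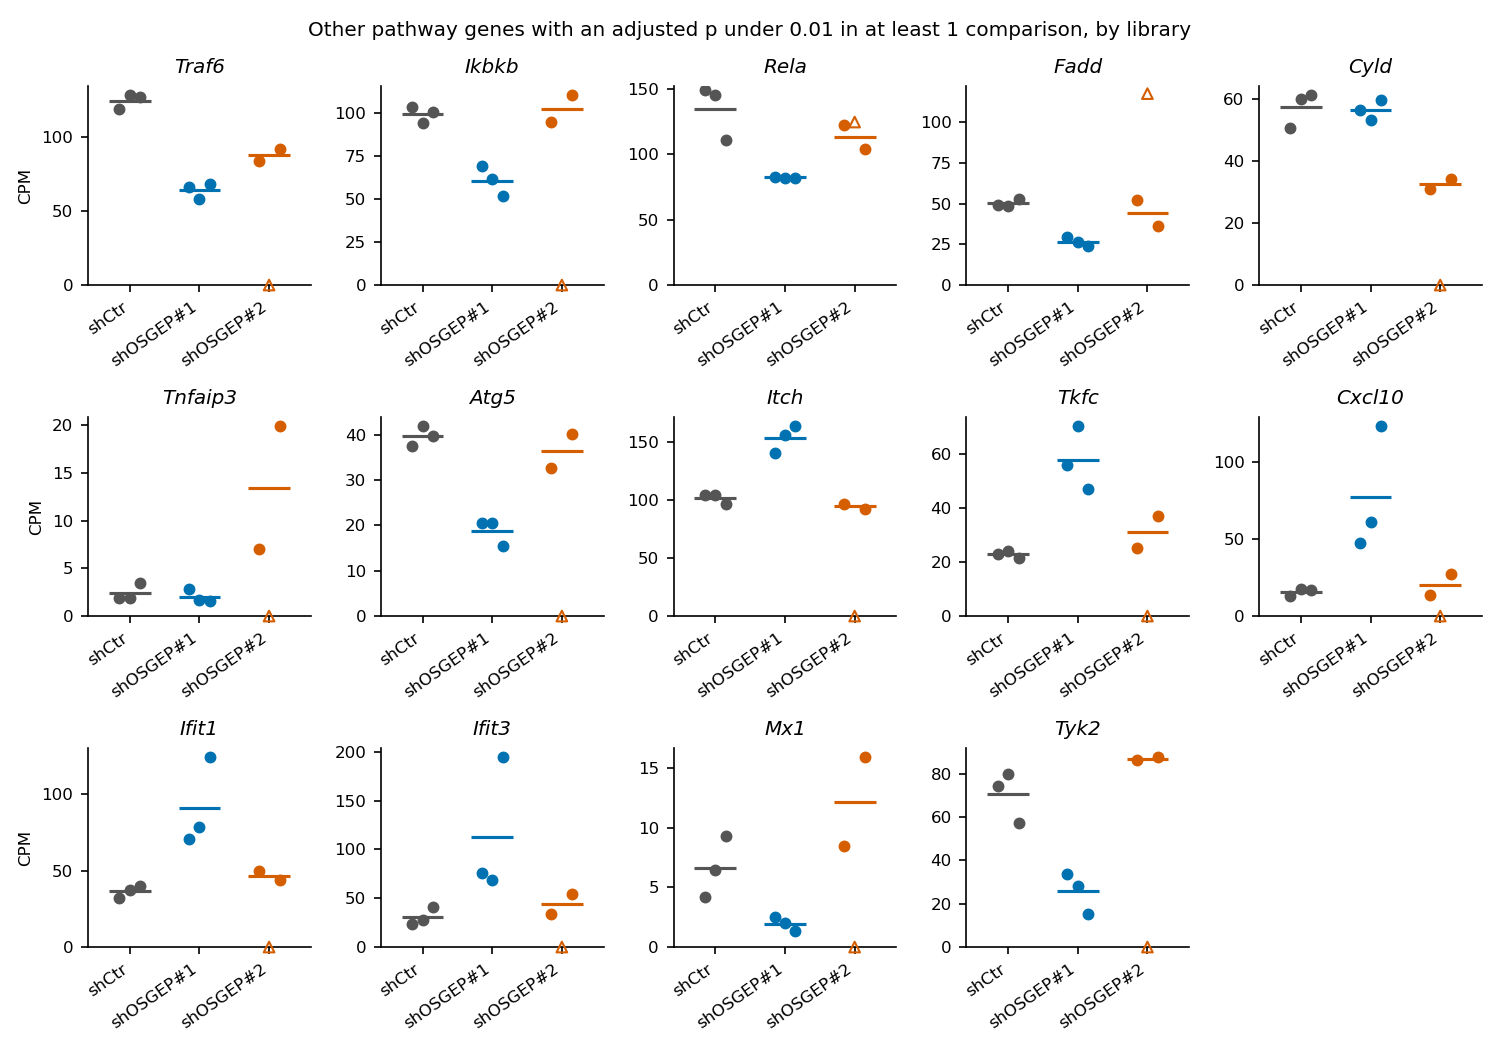
CPM (vertical axes, each from 0) of the 14 further pathway genes with an adjusted p under 0.01 in at least 1 comparison, in every library, by group. Filled points are the 8 libraries of the tests, bars their group means, and open triangles the shallow replicate 2 of shOSGEP#2. Among the filled points, Tyk2 was lowest in shOSGEP#1 and Tnfaip3 highest in shOSGEP#2.

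The genes whose level followed Ddx58 most closely over the 8 libraries were Nenf, Dync1i1, Rgs2, Fzd1 and Irf7. Their Pearson correlations with Ddx58, of log2(CPM + 0.5), were 0.991, 0.977, 0.967, 0.961 and 0.959, the highest of 12743 genes compared. Without the 2 libraries farthest from the median of Ddx58, they were 0.972, 0.936, 0.928, 0.886 and 0.889 over the remaining 6. The libraries share their groups, and the highest values of Ddx58 were those of the shallower shOSGEP#2 libraries. By Spearman correlation 1 of these 5 genes, Dync1i1, was again among the first 5, and 9 genes tied at the highest rho of 0.976. A rho at least that of Nenf was reached by 21 genes, at least that of Rgs2 or Irf7 by 54, and at least that of Fzd1 by 329. Among the pathway members, Ifih1 had a Pearson correlation of 0.860 with Ddx58 and Mavs one of −0.811.

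Promoter sequences, 250 bases before to 50 after the start of transcription, were taken from RefSeq on GRCm38.p6 and matched 9 of the 10 genes, all but Dhx58. They were searched on both strands for GAAANNGAAA, fixed before the sequences were seen, the repeat at the core of elements bound by interferon regulatory factors. It was found in Ddx58 and Ifih1, and in 3.44% of all 32851 promoters. Each match is shown within 30 bases, because Ddx58 and Ifih1 are the sensors themselves, and capitals mark the matching letters.
Ddx58, on chr4:40239804-40239833, minus strand: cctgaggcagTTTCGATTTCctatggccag
Ifih1, on chr2:62646206-62646235, minus strand: gagaagagaatcGAAACAGAAAccgatctg
The Ddx58 match reads on the strand opposite to the gene. Both matches lie after the start of transcription, beginning at base 3 in Ddx58 and base 33 in Ifih1. No match in the other 7 says only that these letters are not in their windows. A form with 1 base fewer between the repeats, GAAANGAAA, was searched after the Ddx58 sequence had been seen, and was found in Ddx58 alone of the 9 and in 3.17% of all promoters.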

How the data were processed

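The authors sequenced RNA recovered with FLAG-tagged RIG-I, trimmed the reads with Trim Galore 0.6.7, aligned them with STAR 2.6.1d to GRCm39 with Ensembl release 112, and quantified them with Salmon, whose version is not given in the sources used here. The deposited table holds raw counts of genes as whole numbers. Identifiers were matched to symbols through GENCODE M21, an annotation of GRCm38, which also gave exon lengths, chromosomes and overlaps; 22285 of 22396 identifiers matched. In that annotation Dhx58, Ikbke, Irf3 and Irf7 share between 45 and 159 exonic bases with genes on the opposite strand. The library kit kept strand, but how counting used it is not given in the sources used here.

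Conditions and replicate numbers came from the sample labels. The test was the quasi-likelihood one of edgeR 4.0.16 with limma 3.58.1 in R 4.3.3, with TMM factors, filterByExpr at a minimum count of 10 and a coefficient per group, on 8 libraries. The threshold, an adjusted p under 0.01, follows the study. A standard error is the fold change, in log2, divided by the square root of F. DESeq2 1.42.0 (the authors used DESeq2 in another version) and the fit with all 9 libraries were alternatives, with others of normalization, filter, threshold, samples and replicate block. Tests were checked on simulated counts of the 8 libraries, with 200 genes changed strongly and alike under both shRNAs. That check does not cover smaller changes, unlike responses or the shallow library. Levels and correlations used Python 3.11.15 with pandas 2.3.3, scipy 1.17.1 and numpy 2.4.6, and plots matplotlib 3.10.9.

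The members and lists were chosen with earlier results of these data known. The genes named are the 10 members, Osgep, the list genes passing in a comparison, the 2 of each list with the highest mean CPM, and the 5 genes most correlated with Ddx58. Other list genes named, such as Ifnb1, and the marker genes singled out were chosen after their values were seen. After the results were known, 1 list gene was removed for a reason unrelated to its values, and list counts and medians are without it.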

Additional observations from a re-analysis of the deposited data

Results flagged for a closer look

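Several genes were picked out because the shRNAs differed when tested directly. The log2 fold change of shOSGEP#2 over shOSGEP#1 was 1.95 for Dhx58. This was the only one of the 9 tested pathway members to pass in the main edgeR test, though with no filter on low counts Ikbke passed as well. Among the further pathway genes the log2 fold change was −0.88 for Cyld, 2.62 for Tnfaip3 (1.74 to 3.17 with a library left out), 0.87 for Atg5, −0.78 for Itch and −0.98 for Tkfc. It was −2.02 for Cxcl10, 2.53 for Mx1 and 1.67 for Tyk2. The Atg5 value passed in 0 of 8 fits with a library left out (0.75 to 0.98), and over all alternatives it was as low as 0.0389. Among the cell type markers the log2 fold change was −1.46 for Mlana, −1.97 for Pmel, −2.38 for Dct and −1.04 for Sox10. It was 2.66 for Col1a1 (1.73 to 3.23 with a library left out) and 2.85 for Col1a2 (2.04 to 3.37), and each of these collagen values passed in 2 of 8 such fits. In shOSGEP#2 replicate 2, a library that the tests do not use, some genes stood above every control library. These were Ifih1 at 135 CPM, Rnf135 at 72.1 CPM and Ikbke at 63.3 CPM. Of the other named genes, Tomm70a was at 446 CPM, Fadd at 118 CPM, Jak1 at 383 CPM and Ifnar1 at 167 CPM, and of the markers Sox10 was at 1089.6 CPM and Col1a1 at 68.5 CPM. In that library 1 count is worth 1.76 CPM and 4196 genes had a count. The share of all genes above every control there was not counted. Single libraries far from their group were not looked for, as the groups hold 3 libraries or fewer. The causes were not tested.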

How the results depend on the processing

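Genes called are given in the order shOSGEP#1 against shCtr, shOSGEP#2 against shCtr, both against shCtr, and between the shRNAs. With all 9 libraries edgeR called 0, 0, 0 and 0 genes and 0, 0, 0 and 0 members, and so it did with a replicate block on all 9 (0, 0, 0 and 0 for genes and for members). DESeq2 called 2420, 2395, 2365 and 2595 genes, with 2 members in shOSGEP#1, 3 in shOSGEP#2 and 2 between the shRNAs, and on all 9 libraries it called 122, 348, 178 and 412 genes and 0, 0, 0 and 0 members. At an adjusted p under 0.05 there were 2797, 2674, 2707 and 2952 genes, with 2 members in shOSGEP#1, 3 in shOSGEP#2 and 3 between the shRNAs. With only the groups compared, 737 genes were called between the shRNAs, and 1023 genes with 1 member in shOSGEP#2. No such fit exists for both shRNAs together, a comparison that uses all groups. Library totals left 1 member in shOSGEP#2, where 1276 genes were called. No filter gave 3 members in shOSGEP#2 (1603 genes) and 2 between the shRNAs (1803 genes). A replicate block on the 8 libraries gave 1380, 1238, 1341 and 1393 genes and 1, 2, 1 and 1 members, Dhx58 losing its call for both shRNAs together, where replicates of the same number correlated by −0.00337 to 0.180 in 7 pairs, 3 of them above 0.1, and 6 of 8 libraries correlated best with one of their own number. Leaving out 1 library gave 318 to 1458, 518 to 1471, 258 to 1351 and 743 to 1504 genes, and 0 to 1, 1 to 2, 0 to 2 and 1 to 1 members. The 6 passing member values never changed sign but lost their call in 42 of 106 alternatives, and the 30 others passed in 6 of 533 and had the opposite sign in 32. Those were, as log2 fold changes in shOSGEP#1, Ifih1 (−0.0798 to 0.19 over the fits without 1 library) and Irf7 (0.0087 with the block, 0.0123 with the block on all 9, −0.30 to 0.47 without 1 library). In shOSGEP#2 they were Ddx58 (−0.19 with the block on all 9), Ikbke (−0.14 to 0.32 without 1 library) and Irf3 (−0.34 with all 9, −0.39 with DESeq2 on all 9, −0.74 with the block on all 9, −0.0359 to 0.39 without 1 library). For both, Irf3 was at −0.10, −0.11 and −0.32 in the same 3 fits on all 9. Between the shRNAs they were Ddx58 (−0.0354 with DESeq2 on all 9, −0.43 with the block on all 9), Rnf135 (0.55 with all 9, 0.52 with DESeq2 on all 9, 0.42 with the block on all 9, 0.000354 with library totals, −0.54 to 0.27 without 1 library), Tbk1 (0.0221 with library totals, −0.25 to 0.11 without 1 library) and Irf3 (−0.49 with all 9, −0.57 with DESeq2 on all 9, −0.85 with the block on all 9, −0.19 to 0.24 without 1 library). Why these moved was not tested.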
